A study of Mus musculus with 2 samples.

Results

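The miR-30 family is a group of 7 mouse microRNA genes, Mir30a, Mir30b, Mir30c-1, Mir30c-2, Mir30d, Mir30e and Mir30f, taken here by their names among the 2202 microRNA genes that were counted. Small RNA came from the gastrocnemius, a large muscle of the calf, of B6CASTF1/J females 2 months old. B6CASTF1/J animals are F1 hybrids with a C57BL/6J and a CAST/EiJ parent, and the labels give no treatment. The single group holds 2 libraries, which the labels call biological replicates 1 and 2. The females have separate numbers in the labels and a shared donor code, so the spread between libraries may be technical as well as between animals.

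MicroRNAs are cut from hairpin precursors and guide Argonaute proteins to messenger RNAs, mainly through the seed, bases 2 to 8 of the mature strand. The classical miR-30 genes are grouped as a family by a common seed on the 5p strand, which gives them overlapping predicted targets. The family is abundant in heart and skeletal muscle, is known in mouse for a role in the differentiation of myoblasts, and in rodent heart for restraining connective tissue growth factor together with miR-133.

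The sequences show what the genes share and where reads can be told apart. RefSeq sequences (GRCm38.p6) were matched by symbol for 5 of the 7 genes, and Mir30b and Mir30d are named only. The mature 5p strands are printed first because they define the family, with miR-384-5p, the strand outside the family with the same seed, and capitals mark bases 2 to 8.
miR-30a-5p: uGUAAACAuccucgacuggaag
miR-30e-5p: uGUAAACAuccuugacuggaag
miR-30c-5p: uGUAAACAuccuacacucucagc
miR-30f: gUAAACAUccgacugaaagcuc
miR-384-5p: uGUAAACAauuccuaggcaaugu

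Among the 1679 mature names in the RefSeq table, 4 carried this seed at bases 2 to 8, and they came from 5 genes, 4 of them in the family. Mir30b and Mir30d had no matched entry there, so their seed was not checked and they are not in this count. Mature miR-30f starts 1 base further into the same letters, so its own bases 2 to 8 differ from the family seed. The strands miR-30a-5p and miR-30e-5p differ by 1 substitution, C13U, counted from the 5′ end with the base of miR-30a first. The opposite strands of these hairpins, printed with bases 2 to 8 in capitals, also differ by 1 substitution, G18A.
miR-30a-3p: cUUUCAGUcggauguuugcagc
miR-30e-3p: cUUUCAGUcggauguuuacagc

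Mir30c-1 and Mir30c-2 give the same mature 5p strand, and their precursors are shown because this limits what their counts can hold. Capitals mark the longest stretch that both share.
Mir30c-1 hairpin: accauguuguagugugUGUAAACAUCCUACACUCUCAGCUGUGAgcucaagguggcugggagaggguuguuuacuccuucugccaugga
Mir30c-2 hairpin: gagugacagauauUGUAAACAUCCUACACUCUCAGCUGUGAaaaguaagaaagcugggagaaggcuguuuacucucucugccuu
The stretch is 28 nt long and holds all 23 nt of miR-30c-5p. A read that lies within it matches both genes equally, and reads that aligned to several places are counted in no gene. The 3p strands of the 2 genes differ by 3 substitutions, G9A, U12C and C22U, with the base of Mir30c-1 first. The longest stretch shared by Mir30a and Mir30e was 18 nt, and either of them shared 12 nt with either Mir30c gene.

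The genes lie on 3 chromosomes of mm10, in neighbouring pairs on the same strand. On the plus strand of chromosome 1, Mir30a (ENSMUSG00000065405.3, chr1:23272269-23272339) is 19361 bp from Mir30c-2 (ENSMUSG00000065567.1, chr1:23291701-23291784). Mir30c-2 lies whole within exonic sequence of the lincRNA Gm27028, and no other annotated gene overlaps Mir30a. On the minus strand of chromosome 4, Mir30e (ENSMUSG00000065409.1, chr4:120772606-120772697) is 2983 bp from Mir30c-1 (ENSMUSG00000065490.1, chr4:120769534-120769622). Both lie in introns of Nfyc, which encodes a subunit of the transcription factor NF-Y. On the minus strand of chromosome 15, Mir30d (ENSMUSG00000065437.1, chr15:68341208-68341289) is 3697 bp from Mir30b (ENSMUSG00000065476.2, chr15:68337415-68337510). Mir30d lies whole within exonic sequence of the lincRNA Gm20732, and 16 bases of Mir30b overlap an exon of the noncoding gene Gm26621.

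Mir30f (ENSMUSG00000105585.1) is annotated at the coordinates of Mir30e on the opposite strand. The precursor of Mir30e is shown with capitals on the bases that face mature miR-30f.
Mir30e hairpin: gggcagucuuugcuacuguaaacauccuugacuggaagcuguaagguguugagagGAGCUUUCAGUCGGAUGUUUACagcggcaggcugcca
Of the 22 nt of miR-30f, 19 face miR-30e-3p. Reads of the 2 genes can thus be told apart by strand alone.

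The miR-30 genes held 147780 of 2291821 own-strand microRNA counts in replicate 2 and 101333 of 1950204 in replicate 1. The share was thus 6.45% in replicate 2, with a 95% Clopper-Pearson interval of 6.42 to 6.48, against 5.20% in replicate 1, where the interval was 5.16 to 5.23. The mean was 5.82% ± 0.885 (SD, n = 2). Such intervals hold counting error alone, and the libraries differed by far more than that. Reads copied by PCR are not separate molecules, so the intervals may be too narrow even for counting error. Of the 7 genes, 6 reached at least 10 counts in each library, the minimum for a gene to be called detected, against 12.6% of all microRNA genes. In a piece of tissue, fewer cells of a type and less RNA per cell cannot be told apart.

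**Figure D1:**
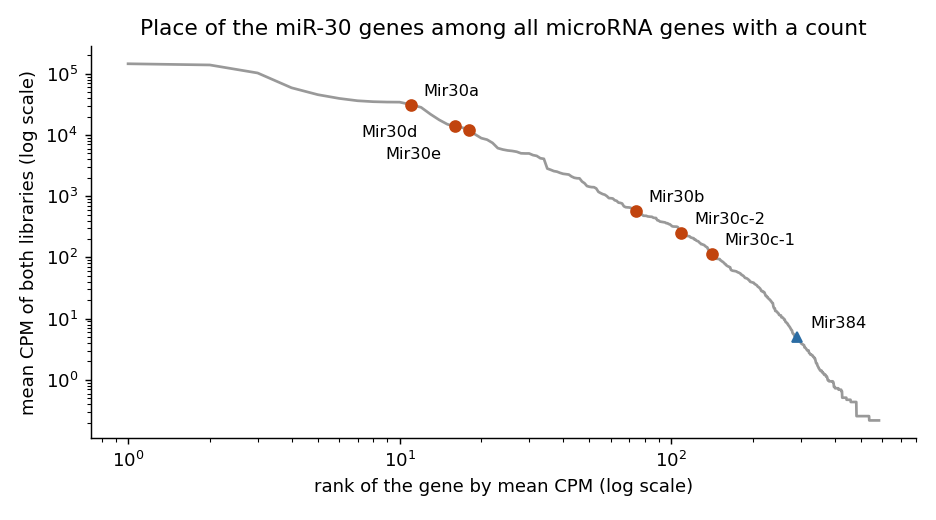
Mean CPM (counts scaled to the own-strand total of a library) of all microRNA genes with a count against their rank, both on log scales, with the 6 miR-30 genes that had counts as circles and Mir384 as a triangle. Mir30a, Mir30d and Mir30e lie among the first 18 genes, while Mir30b, Mir30c-2 and Mir30c-1 lie at ranks 74 to 141. Levels and ranks leave out reads that aligned to several places.

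Mir30a, Mir30d and Mir30e made up nearly all of the family's uniquely placed counts, which leave out reads of miR-30c-5p that match both Mir30c genes. Mir30a, whose 5p strand is the one set first above, had 80623 counts in replicate 2 and 53574 in replicate 1, which gave 35179 CPM in replicate 2, against 27471 CPM in replicate 1. Its mean of 31325 ± 5450.1 CPM (SD, n = 2) ranked it 11 among all genes. Such ranks hold for uniquely placed reads only, because genes with near-identical copies lose the reads that match several places. By mean CPM Mir30a lay between Mir206 and Mirlet7i above and Mir23b and Mir26b below. Mir206, the skeletal muscle microRNA, averaged 34321 ± 10766 CPM, so its libraries span the level of Mir30a. The gene with the highest mean of the table, Mir143 and a microRNA of smooth muscle, was at 94370 CPM in replicate 2, against 196175 CPM in replicate 1.

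Mir30d, the member on chromosome 15 that leads its pair, had 32670 counts in replicate 2 and 26047 in replicate 1. Its levels of 14255 and 13356 CPM in replicates 2 and 1, a mean of 13805.5 ± 636 CPM (SD, n = 2), were the closest together among the 3 leading genes. Mir30e, which shares the introns of Nfyc with Mir30c-1, had 32532 counts in replicate 2 and 19690 in replicate 1. It averaged 12146 ± 2898 CPM (SD, n = 2), from 14195 CPM in replicate 2 and a lower 10096 CPM in replicate 1. Mir30d and Mir30e ranked 16 and 18, and the genes outside the family nearest in level to Mir30d were Mirlet7d and Mir10b above and Mirlet7b and Mir27b below.

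The other members were lower by an order of magnitude or more. Mir30b had 984 counts in replicate 2 and 1432 in replicate 1, which is 429 and 734 CPM and a mean of 582 ± 216 CPM (SD, n = 2). Mir30c-2 had 658 counts in replicate 2 and 407 in replicate 1, or 287 and 209 CPM, a mean of 248 ± 55.4 CPM. Mir30c-1 had 313 counts in replicate 2 and 183 in replicate 1, or 137 and 93.8 CPM, a mean of 115 ± 30.2 CPM. The values of the Mir30c genes leave out reads that lie within the stretch printed above, and how many such reads there were was not tested. They are levels of uniquely placed reads and cannot rank miR-30c-5p within the family.

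Mir30f had no count on its own strand in either library. The limit set for 0 counts was 3 counts, which is 1.31 CPM in replicate 2 and 1.54 CPM in replicate 1. It is a set limit and not an exact interval. The listed counts of Mir30f on the opposite strand were those of Mir30e. The other gene with the family seed, Mir384, had 5 counts in replicate 2 and 15 in replicate 1, or 2.18 and 7.69 CPM, and was not detected.

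**Figure D2:**
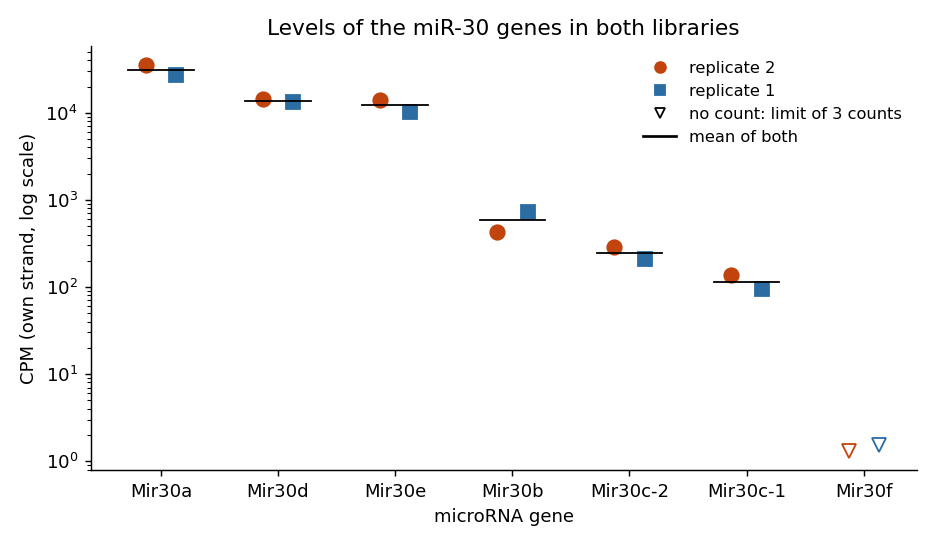
CPM on the own strand of the 7 miR-30 genes on a log scale, with replicate 2 as circles, replicate 1 as squares and a bar at the mean. Open triangles mark the limit of 3 counts for Mir30f, and Mir30b is the detected gene whose replicate 2 value lies below that of replicate 1.

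The order of the levels was Mir30a, Mir30d, Mir30e, Mir30b, Mir30c-2 and Mir30c-1 in both libraries. Mir30d and Mir30e were not separated in replicate 2, where they differed by 138 counts and the ratio of Mir30d to Mir30e was 1.00 (95% exact binomial interval 0.989 to 1.02), while in replicate 1 it was 1.32 (1.30 to 1.35). Their ranges of CPM overlap between libraries, and those of the other neighbours in the order do not. Each read is a whole small RNA, and CPM is not divided by length. Per 100 nt of annotated gene the order of the means was the same, at 44119, 16836, 13202, 606, 295 and 129 CPM per 100 nt.

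Within the family's uniquely placed counts, Mir30a took 54.6% of the counts in replicate 2, with a 95% Clopper-Pearson interval of 54.3 to 54.8, and 52.9% in replicate 1, with one of 52.6 to 53.2. Mir30d took 22.1% in replicate 2 (interval 21.9 to 22.3), against 25.7% in replicate 1 (25.4 to 26.0). Mir30e took 22.01% in replicate 2 (interval 21.8 to 22.2), against 19.4% in replicate 1 (19.2 to 19.7). Mir30a thus took the largest share in both libraries, and Mir30d and Mir30e were closer together in replicate 2. For each of these genes the intervals of the libraries did not overlap. Mir30b took 0.666% in replicate 2 and 1.41% in replicate 1. The Mir30c genes took 0.445% and 0.212% in replicate 2 and 0.402% and 0.181% in replicate 1, Mir30c-2 first.

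**Figure D3:**
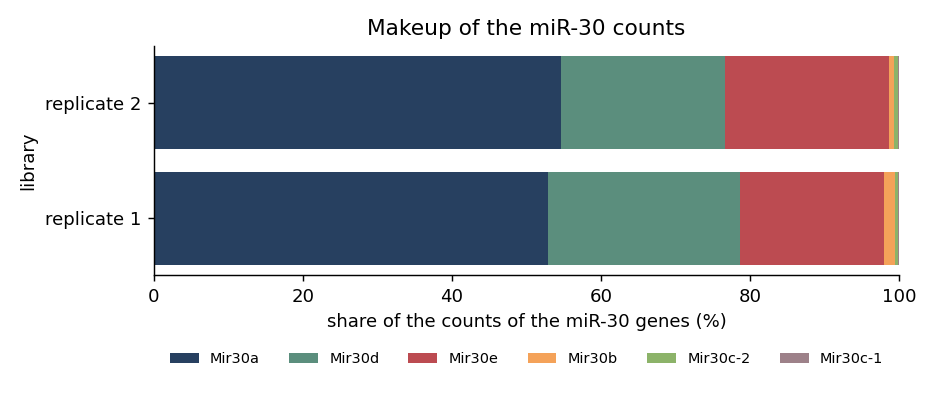
Shares of the summed miR-30 counts by gene, in percent, with 1 bar for each library. Mir30a holds 54.6% in replicate 2 and 52.9% in replicate 1, and the band of Mir30b is wider in replicate 1.

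The libraries were next compared gene by gene, on counts scaled by the trimmed mean of M-values (TMM). The comparison describes these libraries and not conditions, and it has no replicate check. A gene was called at a difference of at least 2-fold with an adjusted p under 0.05 in a two-sided exact binomial test given the scaled library sizes, adjusted by Benjamini-Hochberg over the 278 detected genes. This called 11.9% of all detected genes, 2.52% higher and 9.35% lower in replicate 2, and 0 of the 6 detected miR-30 genes. Without the minimum fold, 55.4% of detected genes had an adjusted exact p under 0.05, 24.8% higher and 30.6% lower in replicate 2, as had 6 of 6 miR-30 genes, 5 higher and 1 lower, since at these counts the test also passes small differences. With the spread estimated from both libraries, a biological coefficient of variation of 0.352, the edgeR exact test called 2.52% of detected genes and 0 miR-30 genes, of which 0 had an unadjusted p under 0.05. The unadjusted edgeR p of the members lay between 0.315 and 0.860. The spread came from the same 2 libraries that were compared, so this test cannot decide whether the members differ. Despite its name, that spread may be technical as well as biological.

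The summed family was 1.27-fold higher in replicate 2, a log2 ratio of 0.35 (exact binomial 95% interval 0.33 to 0.36, counting error only), although scaled by all reads listed in the files it was −0.067. The median of all detected genes was −0.03 with TMM scaling and moved by −0.41 under that alternative. The log2 ratio of the family less that of the median gene was 0.38, a value that does not depend on scaling because each scaling shifts all genes alike. As shares of all reads listed, the family held 1.03% in replicate 2 and 1.08% in replicate 1.

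By gene, the log2 ratio of replicate 2 over replicate 1 was 0.39 for Mir30a (SE 0.0080, counting error) and 0.53 for Mir30e (SE 0.013). It was 0.13 for Mir30d (SE 0.012, adjusted exact binomial p = 3.75e-26), and for Mir30a and Mir30d the sign was reversed when all reads listed were used for scaling. Mir30c-2 had 0.49 (SE 0.091, adjusted exact binomial p = 1.45e-07) and Mir30c-1 0.57 (SE 0.13, adjusted exact binomial p = 4.07e-05). Mir30b alone went the other way, by −0.74 (SE 0.060, adjusted exact binomial p = 4.69e-35), or 1.67-fold lower in replicate 2. A ratio farther from 0 was seen in 22.3% of detected genes for Mir30b, 29.5% for Mir30c-1 and 78.1% for Mir30d. Of the detected genes, 48.9% had a ratio above 0, and of the 6 detected miR-30 genes 5 did, with a median of 0.44. Scaled by all reads listed, 3 of the 6 did, but the median of all detected genes was then −0.44, so the 48.9% is not the background there. Mir30b passed the 2-fold minimum at −1.15 under that scaling, which called 20.5% of all detected genes.

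**Figure D4:**
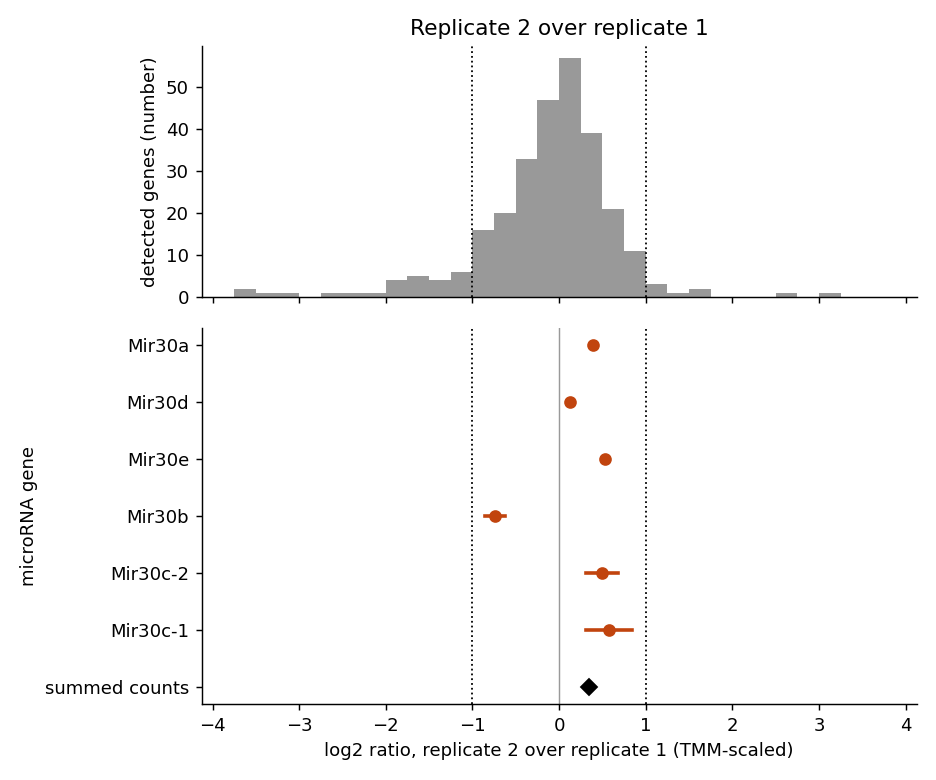
Log2 ratios of replicate 2 over replicate 1, TMM-scaled, as a histogram of all 278 detected genes above and for each miR-30 gene and their sum below, with 95% exact binomial intervals for counting error and dotted lines at 2-fold. All 6 detected miR-30 genes lie inside the 2-fold lines, and Mir30b is the gene below 0.

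Neighbouring genes were then set against each other within each library, which no scaling affects. The ratio of Mir30a to Mir30c-2 was 123 in replicate 2 (95% exact binomial interval 113 to 132), against 132 in replicate 1 (119 to 145). That of Mir30e to Mir30c-1 was 104 in replicate 2 (93.0 to 117), against 108 in replicate 1 (93.02 to 125). These ratios overlap between libraries within counting error, and both rest on Mir30c counts that lack the shared 5p strand. That of Mir30d to Mir30b was 33.2 in replicate 2 (31.2 to 35.4), against 18.2 in replicate 1 (17.2 to 19.2). The pair on chromosome 15 thus differed between libraries by a log2 value of 0.87 (SE 0.061 from counting error), against −0.10 (SE 0.091) for the pair on chromosome 1 and −0.050 (SE 0.13) for that on chromosome 4. Whether this difference exceeds the spread between animals was not tested, as there is 1 value for each library. Mir30b and Mir30d had no matched sequence, so any loss of their reads to several places was not checked.

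**Figure D5:**
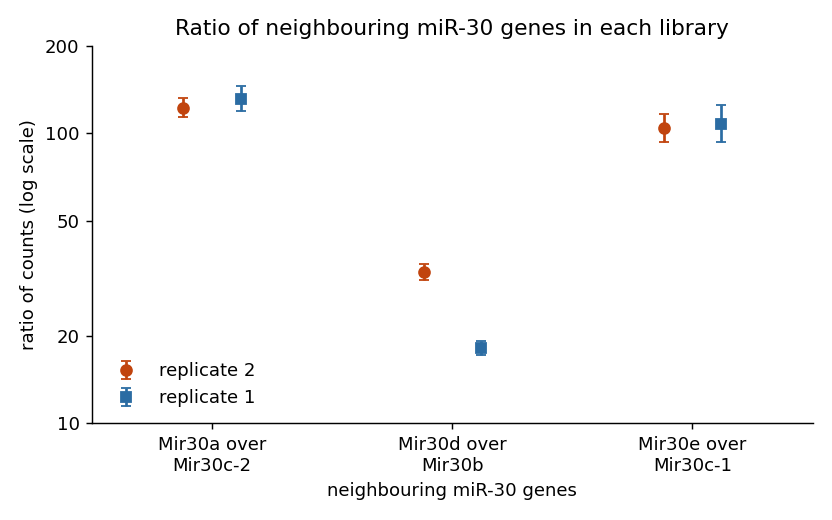
Ratio of the counts of neighbouring miR-30 genes on a log scale in replicate 2 (circles) and replicate 1 (squares), with 95% exact binomial intervals for counting error. The intervals of the libraries overlap for the pairs on chromosomes 1 and 4, and for Mir30d over Mir30b the ratio is 33.2 in replicate 2 and 18.2 in replicate 1.

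The marker microRNAs of several cell types also differed between the libraries. Counted on uniquely placed reads, which leave out those matching several copies of a gene such as Mir1a-1 with Mir1a-2 or Mir133a-1 with Mir133a-2, the 9 microRNAs of skeletal muscle fibres were all detected. Mir206 held most of their counts, and together they took 4.65% of counts in replicate 2 and 2.79% in replicate 1, and the endothelial Mir126a 15.7% in replicate 2 and 12.1% in replicate 1. Mir143 and Mir145a of smooth muscle took 9.73% in replicate 2 and 20.3% in replicate 1. The lists of leukocytes (4 of 4 genes detected), red cells (2 of 2), epithelium (2 of 5) and liver (Mir122) took 0.246%, 0.0460%, 0.0161% and 0.00109% in replicate 2, and 0.315%, 0.0787%, 0.0320% and 0.0110% in replicate 1. Within the leukocyte list, Mir142 and Mir223 had log2 ratios of −1.33 and −1.53 and were called, while Mir150 and Mir155 had 0.03 and 0.14 and were not. The glial and nerve list, in effect Mir338 (the 3 Mir9 genes were at 0, and the Mir124 genes were not found by their listed names), took 0.0855% in replicate 2 and 0.307% in replicate 1, and the fibroblast list (3 of 4 detected) 0.151% and 0.149%. Mir214 held most of the fibroblast counts and had a log2 ratio of 0.14. Mir199b, at −1.67, was called, while Mir214 and Mir199a-2, at −0.17, were not. The part of these cell types in the miR-30 ratios, including the lower Mir30b of replicate 2, was not tested.

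The shares of 3 other families are given on the same uniquely placed reads. Families with near-identical gene copies lose reads unequally, so the shares do not rank the families. The let-7 genes took 12.5% of counts in replicate 2 and 10.7% in replicate 1, the miR-26 genes 2.60% in replicate 2 and 1.86% in replicate 1, and the miR-29 genes 1.03% in replicate 2 and 1.12% in replicate 1. Of these families, 0 of 11, 0 of 3 and 0 of 4 detected genes were called, against 11.9% of all detected genes, a difference that was not tested in lists this small. Their median log2 ratios were 0.07, 0.31 and 0.23, against −0.03 for all detected genes. Of the 9 skeletal muscle fibre microRNAs given above, 2 were called higher and 0 lower, against 2.52% and 9.35% of all detected genes, with a median of 0.61. The called genes were Mir499 (log2 ratio 3.02) and Mir208b (2.67), and the others of that list lay between 0.16 and 0.91. Among 137 other detected genes of at least 100 CPM, those with a log2 ratio nearest to the summed family were Mir378a (0.36, a difference of 0.0097), Mir374b (0.36, 0.017) and Mir151 (0.36, 0.018). The likeness is taken over 2 libraries only.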

How the data were processed

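The authors deposited raw counts of reads per microRNA gene, for reads of either strand, of the gene's own strand and of the opposite strand. Per the notes deposited with each library, reads were assigned to GENCODE mouse release 21 on mm10, and per the labels RNA under 30 nt was sequenced. Which aligner and counter were used is not given in the sources used here. Reads were placed on the C57BL/6J reference, and any loss of CAST/EiJ reads was not tested. Rows that name no gene, which with 72.3% (replicate 2) and 70.1% (replicate 1) of listed reads aligned to several places are most of the reads, stayed out of library sizes and tests.

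Replicate 2 has 14377558 listed reads, 2291821 of them (15.9%) own-strand gene counts, and replicate 1 has 9410562, with 1950204 (20.7%), so 1 count was worth 0.436 CPM in replicate 2 and 0.513 CPM (counts scaled to that total) in replicate 1. Own-strand counts were used because Mir30e and Mir30f overlap.

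Library scaling used TMM from edgeR 4.0.16 and, as an alternative, DESeq2 1.42.0, in R 4.3.3. Exact binomial tests and intervals used scipy 1.17.1 with Benjamini-Hochberg adjustment in statsmodels 0.14.6. Log2 ratios of single genes between libraries have a prior of 0.5 counts, and those of summed counts and of neighbouring genes have none. The quasi-likelihood test could not be run without a second group. An adjusted p too small to represent is not printed. The exact binomial test was checked on simulated counts with counting error alone, so the check does not cover further spread between libraries. The text names all members, the most abundant gene, other genes with the seed, the 3 genes nearest in ratio, the neighbours in level of the 2 most abundant members, and the lists. Members and lists were chosen with earlier results of these data known.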

Additional observations from a re-analysis of the deposited data

Results flagged for a closer look

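Counts outside the own-strand measurement were seen at Mir30f, whose opposite strand held 32532 reads in replicate 2 and 19690 in replicate 1, equal to the own-strand counts of Mir30e. The other 6 members had 0 opposite-strand counts. Multiply aligned reads, which are part of no gene's count and would include reads lying within the stretch shared by the Mir30c genes, numbered 10399139 in replicate 2 and 6593896 in replicate 1. Both are listed because they exceed the limit of 3 counts.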

How the results depend on the processing

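The mean family share was 6.79% without Mir143 in the denominator and 1.05% of all reads listed. Without Mir143 the share was 7.12% in replicate 2 and 6.46% in replicate 1, so the libraries lay closer together. With Mir143 included it was 6.45% in replicate 2 and 5.20% in replicate 1. The log2 ratio of the summed family was 0.37 with DESeq2 size factors, 0.31 with library totals, 0.32 with counts of either strand and −0.067 with all reads listed as library size, a scaling added after the data were seen. That scaling gave −0.022 for Mir30a and −0.28 for Mir30d. It called 57 genes, 20.5% of those detected (4 higher and 53 lower, against 7 and 26), and 1 of 6 members, Mir30b. Without a minimum fold, 154 genes (55.4%) and 6 of 6 members were called. With the estimated dispersion, 7 genes (2.52%) and 0 of 6 members were called. The log2 ratio of Mir30a over Mir30c-2 was 6.94 in replicate 2 alone and 7.04 in replicate 1 alone. With replicate 2 first, it was 5.05 and 4.19 for Mir30d over Mir30b, and 6.70 and 6.75 for Mir30e over Mir30c-1. The cause of these differences was not tested. Counts of either strand list Mir30e at 0, so its ratios have no value there, and the family sum behind the 0.32 lacks Mir30e. Leaving out 1 library leaves no ratio between libraries. No paired analysis was possible because there is 1 group. Depth limits Mir30f and Mir384, and the precision of all ratios is set by having 2 libraries.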

Other observations

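Mir30e with Mir30f is 1 of 32 places where microRNA genes on opposite strands overlap. In 22 of these the more abundant gene was detected, and in 14 of the 22 the other strand had 0 counts in both libraries, as Mir30f did. In 2 of the 22 the less abundant strand was also detected, namely Mir3074-1 beside Mir24-1, with 11 counts in replicate 2 and 10 in replicate 1, and Mir3107 beside Mir486, with 36 counts in replicate 2 and 21 in replicate 1. These pairs were named after their values were seen.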
